A study of Bos indicus with 11 samples.

Results

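The expression of 7 genes of thyroid hormone action was examined in the endometrium of beef cows 6 days after insemination, and 6 of the 7 were matched by gene symbol among the 24616 genes of the expression table. They were the deiodinases DIO1 and DIO2, the receptors THRA and THRB, the transporter SLC16A10 and the corepressor NCOR1, while the deiodinase DIO3 was not analysed here. The genes were chosen from the comparison of cows that were later pregnant or not, so their differences between these groups are given as descriptions with no test. All samples were biopsies from multiparous, non-lactating Nelore (Bos indicus) cows whose oestrus had been synchronized with a prostaglandin analogue, selected by the study for similar progesterone, and taken on day 6 from the uterine horn on the side away from the corpus luteum. After a pregnancy diagnosis on day 30, 6 cows were assigned to the pregnant (P) and 5 to the non-pregnant (NP) group, so each sample was a different animal and the groups differed by outcome, not by treatment. The groups were therefore formed after the fact, and whether a given NP cow had carried an embryo on day 6 is not known from the labels.

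Thyroid hormone acts in a tissue in several steps. Thyroxine, the main product of the gland, enters cells through membrane transporters and is converted by type 2 deiodinase, the selenoprotein encoded by DIO2, into the active hormone triiodothyronine. Type 1 deiodinase, best known from liver, kidney and thyroid, can also activate thyroxine, and type 3 deiodinase inactivates both hormones. Triiodothyronine binds the nuclear receptors alpha and beta, which pair with retinoid X receptors on DNA and recruit corepressors such as NCOR1 when they hold no hormone.

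The libraries held between 9290949 and 13569085 reads on genes, with a median of 11559415 in P cows and 10851407 in NP cows. Values are normalized counts, that is, reads divided by a factor for the depth of the library. Markers of epithelium (summed count 2119 to 23016) and of stroma (116781 to 355487) were present in all 11 biopsies, both of which the endometrium holds. Cow P617 stood apart from the others on the first principal component (166, against 59.1 in P1541 and -43.3 to 8.58 in the other 9), had the lowest epithelial marker sum and the highest smooth muscle marker sum (424700, against 24992 to 306820 in the other cows). Its biopsy also held transcripts of genes known from liver, and the study's supplement names this cow as non-pregnant where the label places it in P. The label was followed, and where this cow turns the sign of a printed difference or moves it by over 1.5 times, the value without it is given too.

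DIO2 (ENSBTAG00000001605) was higher in every NP cow than in any P cow. The normalized count in P cows was 3.87 in P1541, 5.71 in P1631, 6.13 in P2396, 10.2 in P617, 11.1 in P1753 and 16.3 in P904. In NP cows it was 22.6 in NP856, 36.1 in NP2541, 41.6 in NP638, 49.9 in NP2810 and 69.8 in NP238. The ranges of the groups did not overlap, and P904 and NP856 were the neighbouring cows across the gap. The mean was 8.87 ± 4.56 (SD, n = 6) in P and 44.0 ± 17.5 (SD, n = 5) in NP cows, a ratio of 4.96. The difference on the log2(normalized count + 1) scale was 2.23 with a standard error of 0.40.

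DIO2 was a lowly sequenced gene, and this set the precision of each cow's value. It had 4, 5, 7, 9, 11 and 17 reads in the P cows in the above order, 53 in all. In the NP cows it had 21, 46, 41, 49 and 69 reads, 226 in all. The exact 95% Poisson interval ran from 9.903 to 27.219 reads in P904 and from 12.999 to 32.101 reads in NP856, so these neighbours could not be separated by counting error alone. The SD between cows exceeded the SD that counting would give, which was 2.996 in P and 6.577 in NP cows. Among the genes of this set, DIO2 was the only one of the 5 that passed a mean of 5 normalized counts for which the groups did not overlap. Over all 15081 genes that passed this filter the groups did not overlap for 1.09%, with the higher values in NP cows for 0.855% and in P cows for 0.239%.

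**Figure D1:**
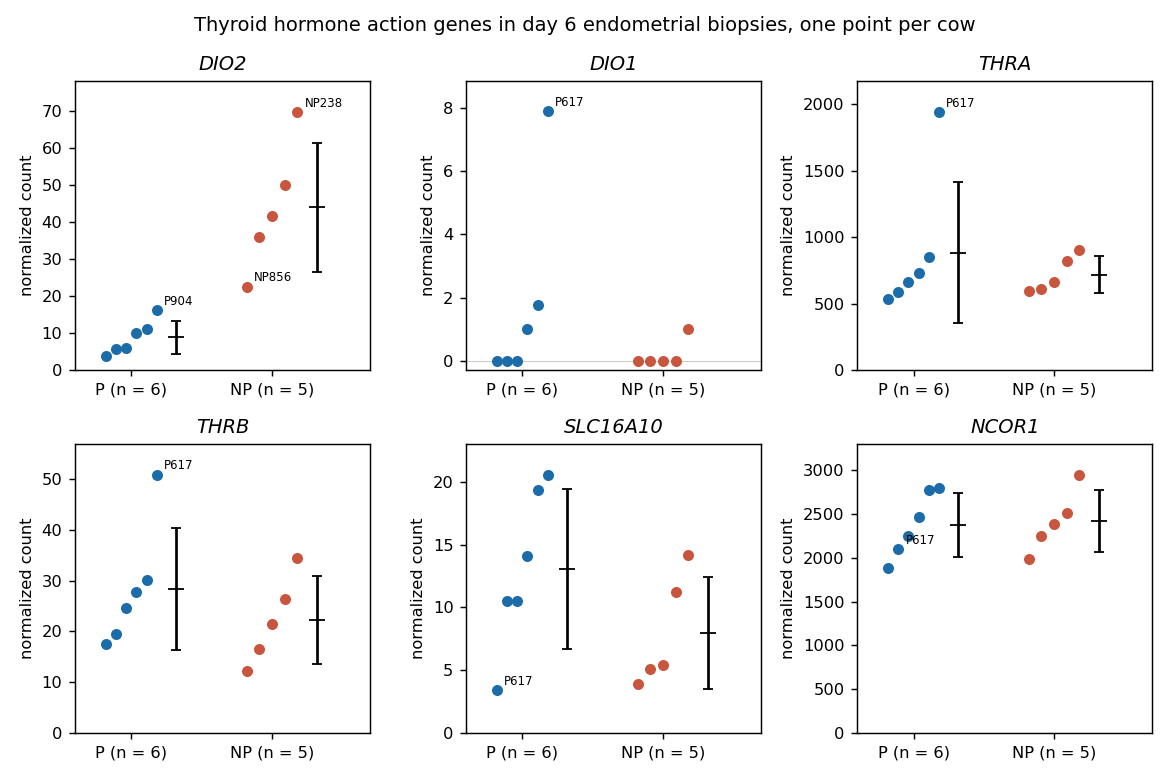
Normalized counts (y axis) of 6 thyroid hormone action genes in P (blue) and NP (red) cows, 1 point per cow, ordered by value within a group. The black bars give the mean and SD, left out for DIO1. The 5 NP cows lie above the 6 P cows for DIO2, the groups overlap for the other genes, and P617 is the highest cow for DIO1, THRA and THRB and the lowest for SLC16A10.

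The DIO2 difference was followed through the cows that stood apart. It was 2.08 without P617 and P1541, with P cows from 5.71 to 16.3, and 2.41 without P904, the highest P cow. With P617 counted as NP, as the supplement names it, the difference was 1.97 and the groups overlapped, because the value of 10.2 in P617 lay below the 16.3 in P904. In the annotation of a Bos indicus assembly, which is not the Bos taurus genome used for counting, the DIO2 locus overlaps an uncharacterized gene (LOC109565392). Whether they overlap in the annotation used for counting was not examined. The counting is not stated to use strand, so any reads from that gene could not be told apart.

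Markers of vessel-associated and immune cells also had higher means in NP cows, as did those of stroma, epithelium and proliferation when all 11 cows were used. The pericyte score, the mean log2(normalized count + 1) of 3 of the 4 listed markers (PDGFRB among them), was 9.69 ± 0.29 (SD, n = 6) in P and 10.35 ± 0.10 (SD, n = 5) in NP cows. This score differed by 0.66 (two-sided exact permutation test, p = 0.00433, 0.0303 adjusted over 7 scores), and the summed pericyte count ranged from 2471 to 4985 in P and from 4845 to 5569 in NP cows. PDGFRB itself differed between the groups without overlap, and the score without it was not compared between them. The lists were chosen with earlier results of these data known, so this p is not an independent test. The endothelial score was higher in NP cows by 0.84 for 6 of 6 markers (exact permutation p = 0.0195, adjusted p = 0.0682), with sums of 3312 to 11491 in P and 7018 to 12331 in NP cows. The immune score was higher by 0.70 for 5 tested of 6 markers (exact permutation p = 0.0346, adjusted p = 0.0808), with sums of 340 to 779 in P and 592 to 1230 in NP cows. With 1 cow left out, the pericyte score had an adjusted p from 0.0556 to 0.1 in 10 of 11 cases and 0.0185 without P904 (exact permutation). The smooth muscle score had the largest difference of the 7 scores, at -1.31 (NP minus P) for 7 tested of 10 markers (exact permutation p = 0.106, adjusted p = 0.186). Its sums were 50274 to 424700 in P and 24992 to 175261 in NP cows. The stromal, proliferation and epithelial scores were higher in NP cows by 0.46, 0.44 and 0.22 (exact permutation, adjusted p = 0.233, 0.707 and 0.838). Without P617 the proliferation and epithelial differences were -0.07 and -0.25. P904, the P cow with the most DIO2, also had the highest pericyte (10.15), endothelial (10.56) and immune (7.09) scores of the P cows. NP238, the NP cow with the most DIO2, had the lowest pericyte (10.21) and endothelial (10.01) scores of the NP cows. Its immune score (6.77) lay inside the NP range. Over the 6 P cows Pearson's r of DIO2 was 0.60 (pericyte), 0.43 (endothelium) and 0.61 (immune). The adjusted p by exact permutation was 0.374, 0.617 and 0.374. P904 and 1 further cow, those farthest from the median score, were then left out. The further cow was P1631 (pericyte), P617 (endothelium) and P1541 (immune). Over the P cows left, r was -0.04, 0.94 and -0.67 in the same order, from too few cows to be read as relations. With the smooth muscle score as a covariate the DIO2 difference was 2.03. With one of the other scores it was 2.01 (pericyte, without PDGFRB), 2.1 (endothelium), 1.91 (immune) and 2.21 (stroma), in fits added after the data had been seen. In a whole biopsy, more cells of a type and more RNA per cell cannot be told apart.

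PDGFRB, a receptor for platelet-derived growth factor that marks pericytes and stromal fibroblasts, had the highest likeness to DIO2 from cow to cow when all 11 cows were used. Likeness was the Pearson correlation over the 11 cows of deviations from the group mean on the log2 scale, compared for 15080 genes, so that the difference between P and NP did not enter it. For PDGFRB r was 0.916 (Spearman's rho = 0.936), and it was 0.842 without P904 and P1541, the cows farthest from the median deviation in DIO2. Without these cows FAM210A had the higher value, at 0.893, so the order of the most similar genes depends on them. PDGFRB ranged from 1235 normalized counts in P1541 to 1797 in P904 and from 2427 in NP856 to 3119 in NP238, so that the lowest and the highest cow of each group were the same for both genes. The next were FAM210A (r = 0.880, rho = 0.891), C5H12orf73 (r = 0.865, rho = 0.855), MYOC (r = 0.841, rho = 0.809) and ADAMTS4 (r = 0.837, rho = 0.891). They were picked as the highest of many genes, so no p is given. FAM210A differed between the groups by less than the spread between cows, at 179 ± 22.7 (SD, n = 6) in P and 180 ± 22.7 (SD, n = 5) in NP cows.

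**Figure D2:**
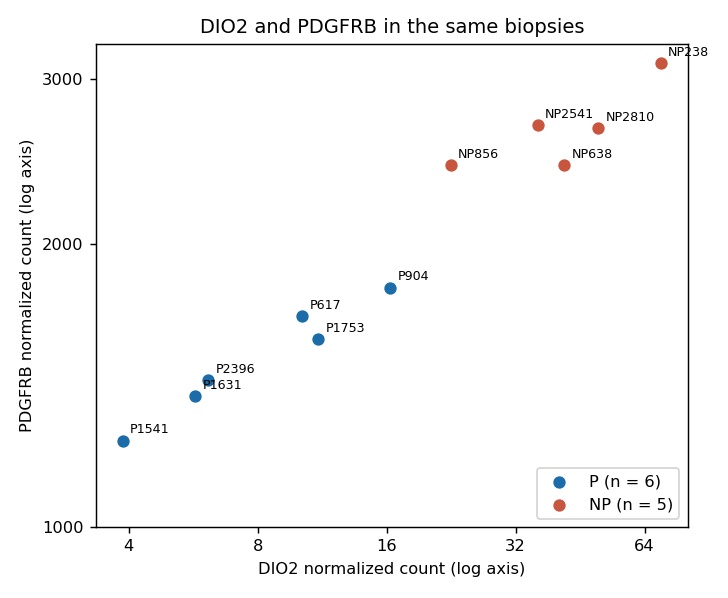
Normalized count of DIO2 (x axis, log scale) against that of PDGFRB (y axis, log scale) in each cow, P in blue and NP in red. P1541 is the lowest and P904 the highest P cow on both axes, and NP856 is the lowest and NP238 the highest NP cow.

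DIO1 (ENSBTAG00000010814), the other deiodinase that can activate thyroxine, was at the detection limit except in one cow. It had 7 reads in P617 (7.91 normalized counts, exact 95% Poisson interval 2.81 to 14.4 reads), 2 in P2396 and 1 each in P1753 and NP638. The other 7 cows had 0 reads, for which the upper limit of the same interval is 3.69 reads. With a mean of 1.06 normalized counts DIO1 did not pass the filter, and no fold was computed for it.

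The cow with the most DIO1 reads, P617, was also the cow with the most transcripts of genes known from liver. All 16 of a list of such genes, most of which encode secreted proteins, drawn up after the values had been seen, were highest in P617, with a summed normalized count of 20475, against 28.2 to 157 in the other 10 cows. Fibrinogen beta chain (FGB) was at 5329 in P617, against 6.04 to 33.6. Carriers of thyroid hormone in blood were among them. Albumin (ALB) was at 3323 in P617, against 5.03 to 46.5 in the other cows, transthyretin (TTR) at 136, against 0 to 8.15, and thyroxine-binding globulin (SERPINA7) at 15.8 from 14 reads, against 0 to 1.0066. The part of this material in the values of P617 was not tested.

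**Figure D3:**
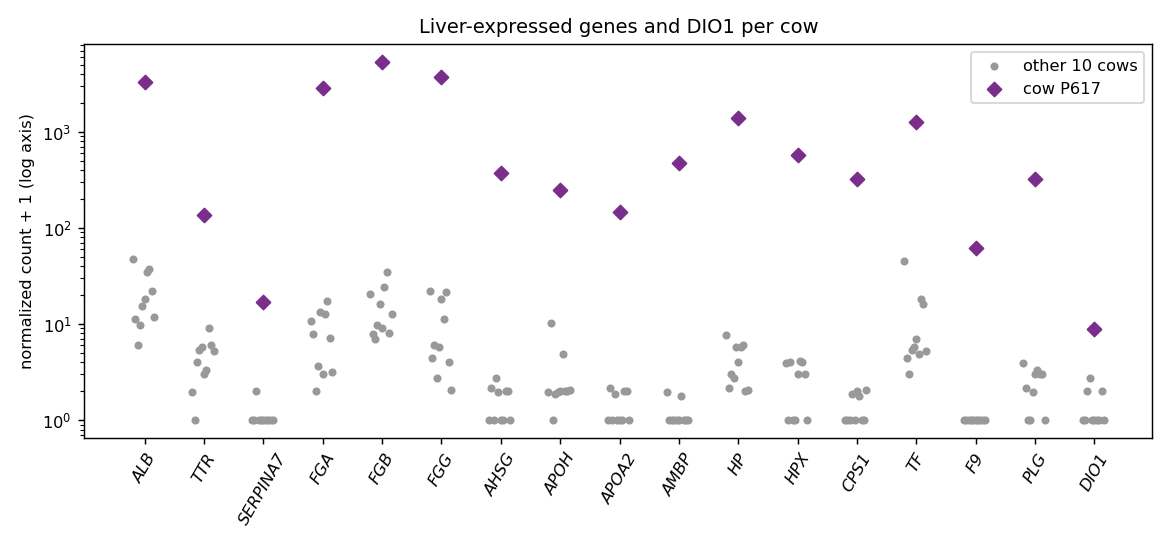
Normalized count + 1 (y axis, log scale) of liver-expressed genes and DIO1 (x axis) in each cow, 1 point per cow. P617 is the highest cow for each gene shown, with FGB at 5329 and ALB at 3323, and DIO1 is at 7.91 in P617.

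THRA (ENSBTAG00000010745), which encodes the receptor alpha, was at similar levels in P and NP cows apart from P617. In P cows the normalized count was 539 in P1631, 589 in P904, 662 in P2396, 730 in P1753, 850 in P1541 and 1942 in P617. In NP cows it was 594 in NP856, 611 in NP2810, 667 in NP238, 820 in NP2541 and 907 in NP638. The P and NP ranges overlapped, at 885 ± 529 (SD, n = 6) in P and 720 ± 138 (SD, n = 5) in NP animals. The log2 difference for THRA was -0.16 with a standard error of 0.29. Without P617 the P cows had 674 ± 122 (SD, n = 5), and the log2 difference was 0.09, of the opposite sign.

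The level of THRA varied with the marker scores of the biopsies. Of 35 relations between a gene of this set and a tissue marker score (over 11 cows, or over the 6 P cows for DIO2), those that passed an adjusted p of 0.05 by Pearson's r were all of THRA. THRA was lower where the epithelial score was higher (r = -0.94, permutation p = 0.0007, adjusted p = 0.0117, and rho = -0.70, permutation p = 0.0201, adjusted p = 0.214, n = 11). It was higher where the smooth muscle score was higher (r = 0.778, permutation p = 0.0010, adjusted p = 0.0121, and rho = 0.727, permutation p = 0.0138, adjusted p = 0.214). It was lower where the score of proliferation genes was higher (r = -0.924, permutation p = 0.0005, adjusted p = 0.0117, and rho = -0.818, permutation p = 0.0035, adjusted p = 0.123). Without the 2 cows farthest from the median score, P617 among them each time, r was -0.61 for epithelium, 0.653 for smooth muscle and -0.641 for proliferation genes. The rank correlations did not pass the adjustment. Without P617 alone, r was -0.722 for epithelium, 0.728 for smooth muscle and -0.740 for proliferation genes. Each relation was thus weaker without this cow, by the least for smooth muscle. Within the 6 P cows r was -0.976 for epithelium, 0.870 for smooth muscle and -0.952 for proliferation genes, P617 included, and no correlation is given within the 5 NP cows or the 5 P cows without P617.

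**Figure D4:**
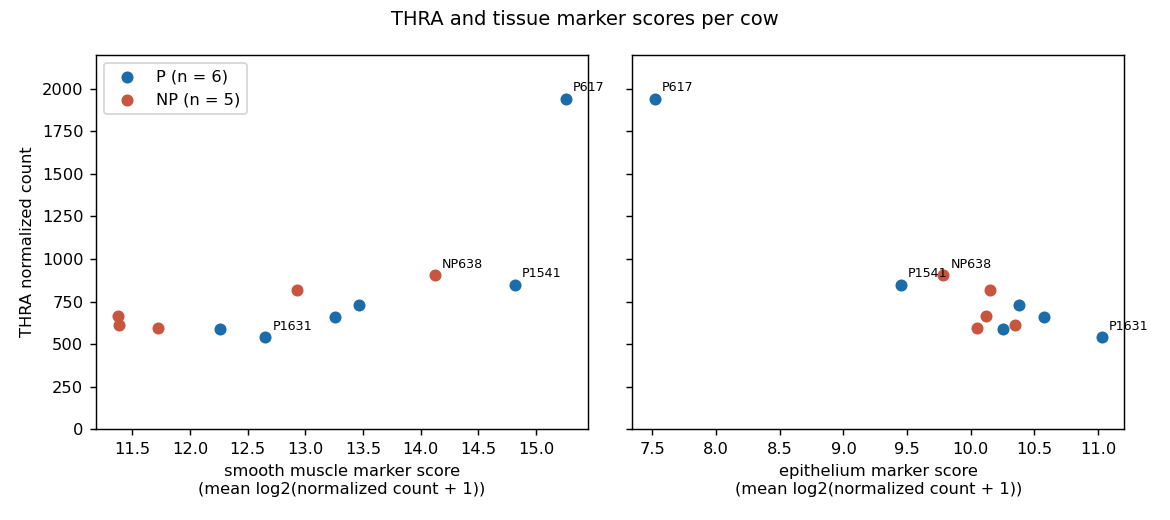
Normalized count of THRA (y axis) against the epithelial and the smooth muscle marker score (x axes, mean log2(normalized count + 1) of the markers), 1 point per cow, P in blue and NP in red. P617, at 1942 normalized counts of THRA, has the lowest epithelial and the highest smooth muscle score.

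THRB (ENSBTAG00000017802), the receptor beta gene, had far fewer reads and overlapping groups. In P cows it was at 17.4 in P1541, 19.4 in P1631, 24.5 in P2396, 27.8 in P904, 30.2 in P1753 and 50.8 in P617. In NP cows it was at 12.2 in NP2810, 16.5 in NP2541, 21.5 in NP856, 26.3 in NP238 and 34.5 in NP638. P617 was again the highest cow, as for THRA. The means were 28.4 ± 12.03 (SD, n = 6) in P and 22.2 ± 8.67 (SD, n = 5) in NP animals. The log2 difference for THRB was -0.34 with a standard error of 0.35. It was -0.15 without P617, when the P cows had 23.9 ± 5.41 (SD, n = 5). In the same Bos indicus assembly the THRA locus overlaps MED24, a Mediator subunit gene, and the THRB locus overlaps NR1D2, a clock-related nuclear receptor gene. P617 had 408 normalized counts of MED24, the lowest of the P cows, where all cows ranged from 345 to 723. It had 263 of NR1D2, inside the range of 190 to 388. The part of reads from these genes in the values of THRA and THRB was not tested.

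SLC16A10 (ENSBTAG00000009239) encodes MCT10, a transporter of thyroid hormone and aromatic amino acids. It was at 3.39 normalized counts in P617, 10.5 in both P2396 and P904, 14.1 in P1753, 19.4 in P1541 and 20.6 in P1631. In NP cows it was at 3.92 in NP2541, 5.07 in NP638, 5.38 in NP856, 11.2 in NP2810 and 14.2 in NP238. NP2541, NP638 and NP856 lay below every P cow other than P617, while NP2810 and NP238 lay inside the range of the P cows. The mean was 13.1 ± 6.38 (SD, n = 6) in P, from 78 reads in all, and 7.95 ± 4.48 (SD, n = 5) in NP cows, from 40 reads. For SLC16A10 the log2 difference was -0.63 with a standard error of 0.49, and -0.93 without P617, when the P cows had 15.0 ± 4.77 (SD, n = 5) and the groups still overlapped.

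NCOR1 (ENSBTAG00000013271), the corepressor that unliganded thyroid hormone receptors recruit, had the smallest log2 difference of the 5 genes tested. Its normalized count was 1887 in P1541, 2097 in P617, 2244 in P904, 2461 in P1753, 2775 in P2396 and 2795 in P1631. In NP cows it was 1991 in NP2810, 2243 in NP2541, 2390 in NP638, 2509 in NP856 and 2948 in NP238. The means of 2376 ± 368 (SD, n = 6) and 2416 ± 355 (SD, n = 5) differed by less than the spread between cows. The log2 difference was 0.03 with a standard error of 0.14. Without P617 it was -0.0067, of the opposite sign, and the P cows had 2432 ± 381 (SD, n = 5).

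The wider pathway was examined with 9 gene lists of 68 genes, of which 61 were matched in the table and 47 passed the filter. None of the 47 passed an adjusted p of 0.1 with limma, and the same held for edgeR and DESeq2, while over all tested genes limma called 0.0%, edgeR 0.0% and DESeq2 1.33%. At an unadjusted p under 0.05, limma called 3 of the 47 (6.38%, against 7.84% of all tested genes), edgeR 4 (against 7.63%) and DESeq2 3 (against 9.75%). Of the 3, the NP mean exceeded the P mean for 1 and lay below it for 2, against 5.49% and 2.35% of all tested genes. With the stromal score as a covariate, a fit added after the data had been seen, 7 of the 47 passed an adjusted p of 0.1, against 18.9% of all tested genes. Of the 47, 24 had a higher mean log2 level in NP cows, against 50.2% of all tested genes. The median difference was 0.01, against 0.00 over all tested genes. Without P617, 20 of the 47 had a higher mean log2 level in NP cows, with no share over all genes given here. The median of the 47 was then -0.05. None had groups without overlap, and a share near that of all genes is no result about the lists.

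The 3 genes were 2 targets of thyroid hormone and 1 factor of selenoprotein synthesis. BCL3, a transcriptional coregulator of the NF-kappaB family that responds to triiodothyronine, was at 134 ± 31.3 (SD, n = 6) normalized counts in P and 188 ± 38.8 (SD, n = 5) in NP cows. For BCL3 the log2 difference was 0.49 (limma, adjusted p = 0.564). ME1, the malic enzyme of lipogenesis and a classical target, was at 244 ± 103 (SD, n = 6) in P and 153 ± 22.2 (SD, n = 5) in NP cows (log2 difference -0.59, limma, adjusted p = 0.634). P617 was the highest cow for ME1, at 427, and without it the log2 difference was -0.41 and did not reach an unadjusted p of 0.05. EEFSEC, the elongation factor that delivers selenocysteine and so is needed to make deiodinases, was at 372 ± 72.7 (SD, n = 6) in P and 281 ± 50.1 (SD, n = 5) in NP cows. For EEFSEC the log2 difference was -0.40 (limma, adjusted p = 0.607), and -0.34 without P617, when it did not reach an unadjusted p of 0.05.

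Each remaining list held no gene past either threshold, and P617 set several of the values. Of 7 transporters of thyroid hormone, 5 passed the filter and had log2 differences from 0.18 to 0.93. SLC7A8, an amino acid transporter that also carries thyroid hormone, was at 35.0 normalized counts in P617 and at 946 to 2005 in the other cows, and its log2 difference of 0.41 turned to -0.49 without P617. SLC3A2, the heavy chain that partners SLC7A8, was at 1562 ± 346 (SD, n = 6) in P and 1744 ± 221 (SD, n = 5) in NP cows, with a log2 difference of 0.18 and, without P617, of 0.09. Without P617, 5 of the 47 genes had an unadjusted p under 0.05 with limma, against 8.95% of all tested genes.

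The binding proteins, retinoid X receptors and cofactors gave overlapping groups throughout. Of the 3 binding proteins that passed the filter, ALB turned from a log2 difference of -0.58 to 0.74 without P617, and CRYM, a cytosolic triiodothyronine-binding protein, from -0.10 to -0.64. RXRB, a dimer partner of the receptors, was at 1276 ± 268 (SD, n = 6) in P and 1064 ± 146 (SD, n = 5) in NP cows, and RXRA at 186 ± 32.03 and 215 ± 65.6. P617 was the highest cow for RXRB, and its log2 difference of -0.25 was -0.15 without this cow. RXRG, the remaining retinoid X receptor, is named after its values were seen, as it had the largest log2 difference of the 47 genes. It ranged from 7.99 to 139 normalized counts in P and from 14.3 to 142 in NP cows, with a log2 difference of 1.39 and of 1.14 without P617. Among 5 genes of the corepressor complex, the scaffold SIN3A had a log2 difference of -0.04, and the list's median was -0.12 and, without P617, -0.06. Among 8 coactivators, the histone acetyltransferase CREBBP had a log2 difference of -0.05 and, without P617, of 0.02. NCOA6 had one of -0.05, and of -0.02 without P617, and the list's median was 0.00 and, without P617, -0.02.

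Genes that act on the DIO2 protein gave overlapping groups too. Of the 5 tested genes of ubiquitination and turnover, WSB1, the adaptor of a ubiquitin ligase for type 2 deiodinase, was at 4675 ± 1164 (SD, n = 6) in P and 4421 ± 1333 (SD, n = 5) in NP cows. VCP, which draws ubiquitinated proteins out of the membrane and had a log2 difference of -0.11, and of -0.20 without P617, was at 7077 ± 1119 (SD, n = 6) in P and 6492 ± 517 (SD, n = 5) in NP cows. Log2 differences of this list ran from -0.21 to 0.19. The 7 tested genes of selenoprotein synthesis ran from -0.40, for EEFSEC, to 0.15 (0.01 at the highest without P617), and the 8 targets of the hormone from -0.59, for ME1, to 1.00, for HR, the corepressor hairless, which is named after its values were seen. P617 was the lowest cow for HR, with a normalized count of 10.2 where the other cows ranged from 44.6 to 121, and without it the log2 difference of HR was 0.56.

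**Figure D5:**
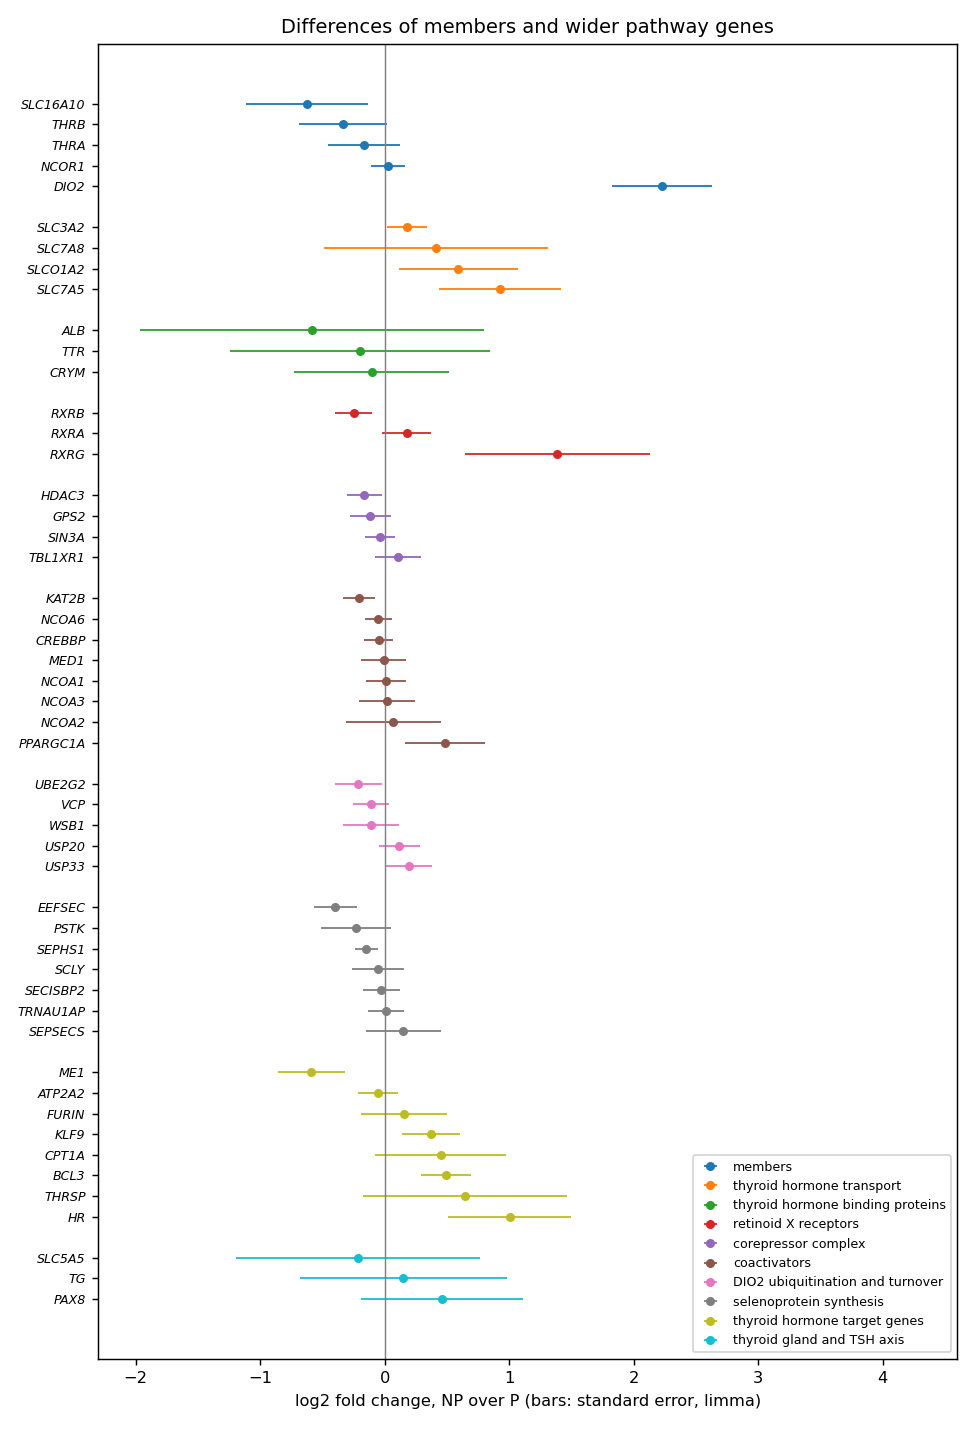
Log2 fold change, NP over P (x axis), of 5 members and of genes of the wider pathway (y axis, coloured by list), with bars for the standard error from limma. DIO2 lies at 2.23, to the right of the other genes shown, and the differences of most pathway genes lie within 1 of 0.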

How the data were processed

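Endometrial polyadenylated RNA was sequenced in paired-end reads from 11 cows (6 P and 5 NP). The authors trimmed reads (Seqyclean 1.4.13), aligned them with Bowtie2 2.1.0 in local mode to the masked Bos taurus genome UMD3.1, counted reads per gene with HTSeq 0.5.4p2 and deposited 1 table of counts normalized by DESeq2 1.12.1, a signal that is reads divided by a size factor per library. Cows of Bos indicus were thus aligned to another subspecies' genome, and the annotation release and use of strand are not given in the sources used here. Whole reads were recovered from the steps between values in each column (tolerance 0.01), to give depth, exact 95% Poisson intervals and count tests. Intervals cover counting error only.

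The main test was limma 3.58.1 (R 4.3.3) with a trend on log2(normalized count + 1), on 15081 genes whose mean normalized count reached 5, with Benjamini-Hochberg adjustment and a threshold of 0.1. Fold changes are NP over P and understate changes of low genes. Marker scores were compared by exact permutation over cows, and relations with scores by 100000 permutations (for DIO2, over the 6 P cows, by all 720). edgeR 4.0.16, DESeq2 1.42.0 and limma-voom on the recovered reads, other pseudocounts (0.5 and 5), filters and scalings, each cow left out and marker scores as covariates were alternatives. The fits were tested on simulated data. The named genes were the members, from each list the genes with an unadjusted p under 0.05 or otherwise the 2 with the highest mean, and the 5 most like DIO2. The members and lists were chosen with earlier results of these data known. The planned balance of DIO2 and DIO3 was not computed, PCR measurements of the study were not analysed here, and some genes of the lists are counted but not reported here. Overlaps between genes came from the positions of RefSeq genes in the assembly NIAB-ARS_B.indTharparkar_mat_pri_1.0, and no sequences are shown.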

Additional observations from a re-analysis of the deposited data

Results flagged for a closer look

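Among 26 groups of 5 or 6 cows checked with Dixon's 95% critical values, 3 held a cow far from the others, and chance flags about 1 group in 20. P617 was far above the other P cows for DIO1, at 7.91 normalized counts, with a gap of 0.779 of the range. It was also far above them for THRA, at 1942 normalized counts, with a gap of 0.778 of the range. NP638 was the only NP cow with DIO1, at 1.015 normalized counts, which was 1 read. The other NP cows had 0 reads, so any read in 1 cow is flagged and the chance rate does not apply to this flag.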

How the results depend on the processing

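No paired analysis was possible because the numbers of the cows name animals and the groups share none. Over 28 alternatives the DIO2 difference stayed between 1.81 and 2.44, and that of SLC16A10, which had no value with a mean of at least 20 normalized counts, stayed between -1.10 and -0.12 over 27. THRA ranged from -0.49 to 0.47, the highest with the endothelial score as a covariate, and NCOR1 from -0.09 to 0.34, the highest with the pericyte score. THRB ranged from -0.51 to 0.09, above 0 with P617 as NP and with the endothelial score. Depth limits DIO1 (0 to 7 reads per cow), SLC16A10 (3 to 20) and DIO2 in P cows (4 to 17).

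Across all genes, 0 were called at an adjusted p under 0.1, but 201 with DESeq2, 0 to 171 with 1 cow left out (171 without P904), 17 without P617 and P1541 and 2855 (18.9%) with the stromal score as a covariate. At an unadjusted p under 0.05 there were 1182, 853 to 1548 with 1 cow left out, and 622, 458 and 4581 with the endothelial, immune and stromal scores as covariates. Of the 47 pathway genes, 0 were called at an adjusted p under 0.1, but 7 with the stromal score. Of these genes 3 had an unadjusted p under 0.05, 1 to 5 with 1 cow left out (5 without P617 and without P904, 1 without P1541, P2396, NP238, NP2810 or NP856), 1 with the smooth muscle or the pericyte score, 12 with the stromal score and 5 without P617 and P1541. The pericyte score difference of 0.66 ran from 0.59 to 0.75 with 1 cow left out, when fewer splits of the cows exist. Its adjusted p (exact permutation) was then above 0.05 in 10 of 11 cases, from 0.0556 to 0.1, and it was 0.0185 without P904. The difference was 0.61 (exact permutation, adjusted p = 0.0606) with P617 as NP. The endothelial difference ran from 0.67 to 1.0107 and the immune difference from 0.50 to 0.86 with 1 cow left out, the highest of each without P904 (exact permutation, adjusted p = 0.0185). Their adjusted p reached 0.183 and 0.211 with another cow left out, by exact permutation. With P617 as NP they were 0.38 and 0.56 (exact permutation, adjusted p = 0.488 and 0.258). The stromal difference ran from 0.30 to 0.63 with 1 cow left out and was 0.85 without P617 and P1541 (exact permutation, adjusted p = 0.0278). The covariate fits other than smooth muscle were chosen after seeing the data, and the causes of these changes were not tested.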

Other observations

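Genes of the thyroid gland and its pituitary control were mostly at the detection limit. Of 15 listed, 14 were matched and 3 passed the filter. IYD, which recovers iodide, and FOXE1, a thyroid transcription factor, had 0 reads in all 11 cows. PAX8, a transcription factor of thyroid and also of the female tract, was at 180 ± 94.3 (SD, n = 6) normalized counts in P and 190 ± 54.5 (SD, n = 5) in NP cows, and at 14.7 in P617, against 116 to 256 in the other cows. The log2 difference of PAX8 was 0.46, and -0.16 without P617. TG, the thyroglobulin gene, ranged from 1.13 in P617 to 82.3 among P cows and from 6.09 to 30.6 among NP cows.

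Of the 47 pathway genes, P617 was the highest cow for 9 and the lowest for 15, and NP238 was the highest for 11 and the lowest for 4. The other 9 cows were each at an extreme for 1 to 11 genes. No such count over all tested genes is given here, so these counts are no result about the pathway.

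When the difference between groups was left in the comparison, the genes most like DIO2 over the 11 cows were PDGFRB, EMILIN2, SCN2B and SOD3 and 1 gene with no standard symbol (ENSBTAG00000012615). EMILIN2, an extracellular matrix protein, ranged from 944 to 2525 normalized counts in P and from 2598 to 4900 in NP cows. SOD3, the extracellular superoxide dismutase, ranged from 112 to 174 in P and from 246 to 362 in NP cows. Such a likeness includes the difference that chose DIO2, so no correlation is given.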
